A study of Mus musculus with 8 samples.

Results

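The 9 genes described here encode the proteins that carry oxygen and store or import iron in muscle and blood: the adult alpha globins Hba-a1 and Hba-a2, the adult beta globins Hbb-bs and Hbb-bt, myoglobin (Mb), the red-cell enzyme of haem synthesis Alas2, the ferritin chains Fth1 and Ftl1, and the transferrin receptor Tfrc. They were listed by name, with earlier results of these data known, and all 9 of the 9 were found among 19857 genes counted. RNA came from the tongues of 12-month-old female mice, 4 wild type (WT) and 4 heterozygous for the A17 allele of Pabpn1 (A17/+), a model of oculopharyngeal muscular dystrophy in which PABPN1, a nuclear poly(A)-binding protein, carries an expanded alanine tract. Each library was made from 40 frozen sections of the middle of 1 tongue. The assay, mcSCRB-seq, reads the 3′ end of polyadenylated RNA and counts each molecule once by a unique molecular identifier. The labels give no promoter, strain or litter for the A17 allele, and bulk sections mix muscle, epithelium, vessels and the blood left in them. Fewer cells of a type and less RNA per cell therefore cannot be told apart in any value below.

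Red cells fill with haemoglobin, a tetramer of alpha and beta globin chains that each hold a haem group, and maturing red cells keep globin mRNA after the nucleus is lost. Myoglobin is a single globin chain in the cytoplasm of oxidative muscle fibres, where it stores oxygen and carries it towards mitochondria. Ferritin is a shell of heavy (Fth1) and light (Ftl1) chains that holds iron in a safe form, and the transferrin receptor brings iron into the cell. The mRNAs of ferritin, Alas2 and Tfrc carry iron-responsive elements, short stem-loops that iron regulatory proteins bind when iron is scarce. Binding in a 5′ untranslated region (UTR) blocks translation, and binding in a 3′ UTR protects the mRNA from decay.

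The iron-responsive elements are shown because they divide the iron genes into those regulated at translation and Tfrc, which is regulated at the level of mRNA. They were found in GENCODE M21 transcripts of the mouse build GRCm38 (mm10) as a CAGTGN loop, in capitals, between 5 paired bases with an unpaired C before the upper stem.
Alas2, 5′ UTR: gttcgtcctCAGTGCagggcaac
Fth1, 5′ UTR: ctgcttcaaCAGTGCttgaacgg
Ftl1, 5′ UTR: ttgcttcaaCAGTGTttgaacgg
Tfrc, 3′ UTR, the first: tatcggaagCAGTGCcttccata
Tfrc, 3′ UTR, the second: tatcgggagCAGTGTcttccata
Tfrc, 3′ UTR, the third: tatcggagaCAGTGAtctccata
Tfrc, 3′ UTR, the fourth: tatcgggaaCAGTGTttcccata
Of 21899 coding genes searched in the same way, 155 (0.71%) held such an element in a UTR. None was found in the transcripts of Mb or of the 4 globin genes. A match is a description of the sequence and not a measured site.

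The WT libraries held 205696 to 465014 counts and the A17/+ libraries 395061 to 485326. After a filter on low counts, 5066 genes were tested with edgeR's quasi-likelihood test, and 453 passed an adjusted p of 0.05 (8.94%), 321 higher (6.34%) and 132 lower in A17/+ (2.61%). Levels are in CPM, counts scaled to the TMM-adjusted total of the tested genes, and are given per genotype as mean ± SD. Salivary gland transcripts stood apart in WT 1, with 932 counts over 8 genes against 0 to 20 in the other libraries. A17/+ 1 was the A17/+ library nearest to WT for Mb, Fth1 and the 4 globins. Nuclear transcripts shorter than 1000 nt took 2.12% to 3.04% of the counts in WT, 2.79% in A17/+ 1 and 4.63% to 6.37% in A17/+ 2 to 4. Transcripts of the mitochondrial genome took 4.17% to 6.43% in WT and 7.24% to 10.98% in A17/+, without overlap, and the part of either share in the values below was not tested. Muscle and tongue epithelium were both present by their markers: the 9 genes common to all muscle fibres summed to 68946 to 100191 CPM and the epithelial list to 10790 to 20934 CPM over the 8 libraries. The labels describe the libraries of a genotype as separate mice, so the p-values rest on the spread between animals.

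Of the 9 genes, 4 passed the filter (Mb, Hbb-bs, Fth1 and Tfrc) and 5 lay below it (Hba-a1, Hba-a2, Hbb-bt, Alas2 and Ftl1). Mb, Fth1 and Hbb-bs passed the test, higher in A17/+, and none of the 4 fell, where 6.34% of all tested genes rose. Hbb-bs passed the filter only through the A17/+ libraries and so had to differ: its call is a description and is not counted as support. All 4 globin genes and Mb and Fth1 lay higher in every A17/+ library than in any WT library, a pattern that 8.57% of the tested genes showed, while 6.08% lay lower in every A17/+ library; Hba-a1, Hba-a2 and Hbb-bt are not among the genes behind these shares. For Hba-a1, Hba-a2 and Hbb-bt, WT libraries with 0 counts allow levels above A17/+ 1, as given below. Alas2, Ftl1 and Tfrc overlapped between the genotypes.

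**Figure D1:**
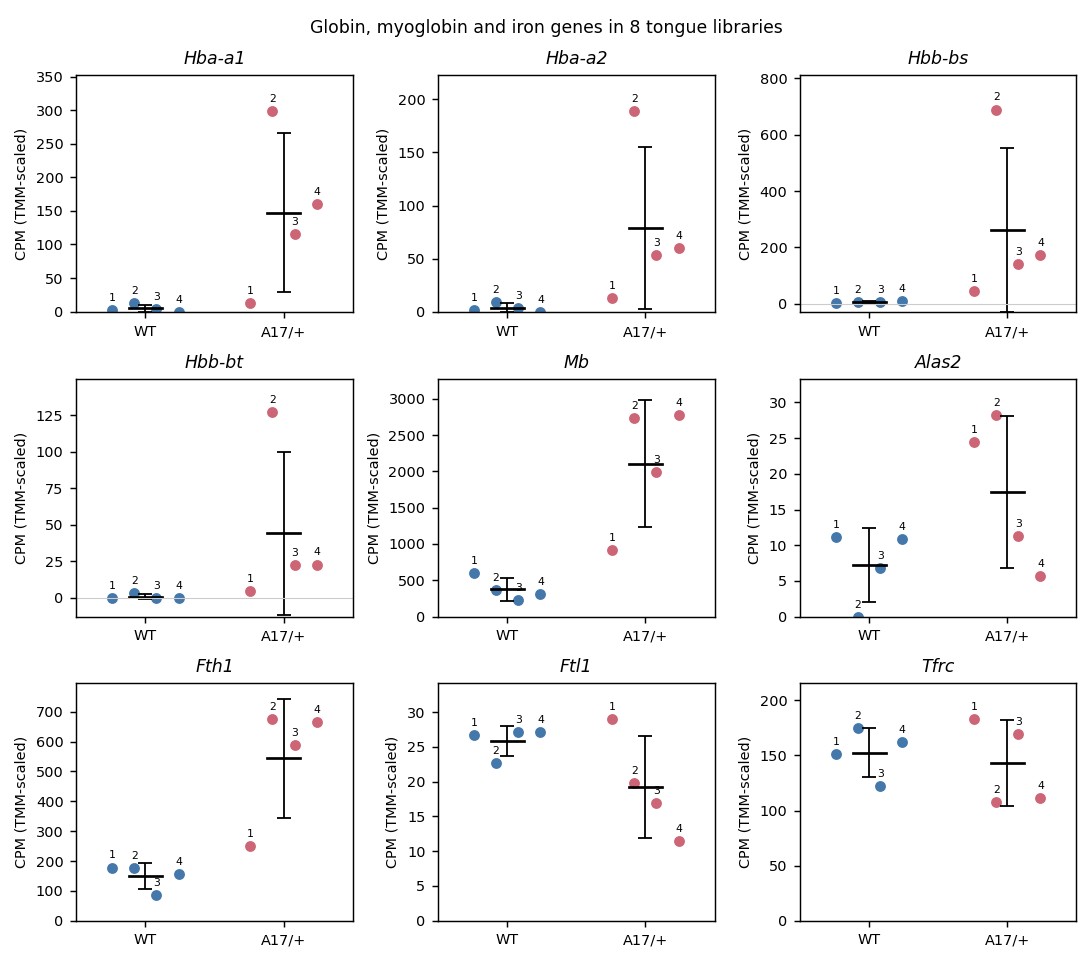
CPM (vertical axis, linear, a separate scale for each gene) of the 9 genes in 4 WT and 4 A17/+ libraries, each point a library with its number, and black bars the mean ± SD. A17/+ 1 is the lowest A17/+ library for the 4 globins, Mb and Fth1, A17/+ 2 is the highest for the globins, and Alas2, Ftl1 and Tfrc overlap between genotypes.

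The alpha globin genes Hba-a1 (ENSMUSG00000069919, chr11:32283511-32284465, plus strand) and Hba-a2 (ENSMUSG00000069917, chr11:32296489-32297298, plus strand) encode the alpha chain of adult haemoglobin; positions here and below are those of GENCODE M21 in mm10. For Hba-a1 the WT libraries 1 to 4 gave 1, 4, 1 and 0 counts and the A17/+ libraries 1 to 4 gave 6, 106, 41 and 56. Scaled for depth, A17/+ 1 (13.4 CPM) lay just above WT 2 (12.9 CPM), and the other A17/+ libraries reached 116 to 299 CPM. Group means were 4.64 ± 5.70 CPM for WT and 147 ± 119 CPM for A17/+ (SD, n = 4; two-sided exact permutation p on log2 CPM with 0.5 added to each count = 0.0571, unadjusted). The added 0.5 puts WT 2 level with A17/+ 1, which is why this p is not the smallest possible. For Hba-a2 the WT libraries 1 to 4 gave 1, 3, 1 and 0 counts and the A17/+ libraries 6, 67, 19 and 21, with the same libraries high and low. Its means were 3.83 ± 4.16 and 79.0 ± 76.3 CPM (SD, n = 4; exact permutation p = 0.0286, unadjusted, the smallest that 4 against 4 can give). For both alpha genes the 0 counts of WT 4 allow up to 16.3 CPM, above the 13.4 CPM of A17/+ 1. With the counts of a genotype pooled, Hba-a1 was 28.6-fold higher in A17/+ (95% counting interval 12.9 to 78.9) and Hba-a2 18.6-fold (7.72 to 58.3). These intervals cover counting error only, not the spread between mice. A17/+ 2 alone held 50.7% of the A17/+ counts of Hba-a1 and 59.3% of those of Hba-a2, and without it the ratios of mean CPM were 20.8 and 11.1.

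The alpha genes are near-copies, with coding sequences 99.8% identical over 426 nt and 3′ ends, where the assay reads, 99.6% identical over 284 nt. The way in which the authors' counting assigned reads to either copy is not given in the sources used here, so the split between Hba-a1 and Hba-a2 is uncertain. Summed before the fit as an alternative, the alpha genes had a log2 fold change of 4.60 (SE 1.04, edgeR adjusted p = 0.0307). The sum passed the filter through the A17/+ libraries alone, with 2, 7, 2 and 0 counts in WT 1 to 4. Its p is therefore a description and adds nothing to the counts.

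Hbb-bs (ENSMUSG00000052305, chr7:103826534-103828096, minus strand) and Hbb-bt (ENSMUSG00000073940, chr7:103812524-103813996, minus strand) encode the beta chains of adult haemoglobin. Hbb-bs had 2 counts in each of the 4 WT libraries and 20, 244, 50 and 61 counts in A17/+ 1 to 4. That is 4.46 to 10.8 CPM in WT and 44.6, 689, 141 and 174 CPM in A17/+, so the genotypes did not overlap while A17/+ libraries differed by 15.5-fold. The log2 fold change was 5.24 (SE 1.09, 95% interval 2.74 to 7.74, n = 4 per genotype, edgeR adjusted p = 0.0215), which is 37.8-fold. Since the filter let Hbb-bs in through A17/+ alone, this p adds nothing to the counts themselves. Without A17/+ 2 it was 4.11 (adjusted p = 0.000516). With the trend on transcript length removed it was 3.78 (adjusted p = 0.00391). The adjusted p rose above the threshold with limma-voom (0.0675), with no filter (0.0980), and without WT 1 (0.0637), WT 2 (0.0535), WT 3 (0.0759), WT 4 (0.0557) or A17/+ 4 (0.0586).

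Hbb-bt was seen 0, 1, 0 and 0 times in WT 1 to 4 and 2, 45, 8 and 8 times in A17/+ 1 to 4. The WT libraries with 0 counts allow up to 6.69 CPM (WT 1), 10.2 CPM (WT 3) and 16.3 CPM (WT 4), levels above the 4.46 CPM of A17/+ 1. Means were 0.808 ± 1.62 and 44.2 ± 55.9 CPM (SD, n = 4; exact permutation p = 0.0286, unadjusted), and the pooled ratio of 51.7 had a counting interval of 8.96 to 2076. A17/+ 2 held 65.1% of the A17/+ counts of Hbb-bs and 71.4% of those of Hbb-bt. The beta genes share 99.8% of their coding sequence over 441 nt but only 89.0% of the last 300 nt over 281 aligned nt. A stretch of over 100 nt at the 3′ end of Hbb-bt is still identical to Hbb-bs, so the split between the beta genes is uncertain too.

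The windows before the RefSeq starts of the globin genes are shown because all 4 genes lay higher in A17/+. Each runs over 250 bases before the start in GRCm38.p6, 5′ to 3′ on the gene's strand, and capitals mark 4 motifs read on either strand: the CACCC box, the CCAAT box, the GATAA motif of GATA factors and the TATA box, searched as TATAAA.
Hba-a1, chr11:32283422-32283671, plus strand: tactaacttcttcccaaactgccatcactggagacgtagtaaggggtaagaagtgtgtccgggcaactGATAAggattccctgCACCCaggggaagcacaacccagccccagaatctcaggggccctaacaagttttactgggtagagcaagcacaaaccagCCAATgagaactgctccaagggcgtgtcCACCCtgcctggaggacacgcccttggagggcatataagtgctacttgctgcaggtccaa
Hbb-bs, chr7:103827929-103828178, minus strand: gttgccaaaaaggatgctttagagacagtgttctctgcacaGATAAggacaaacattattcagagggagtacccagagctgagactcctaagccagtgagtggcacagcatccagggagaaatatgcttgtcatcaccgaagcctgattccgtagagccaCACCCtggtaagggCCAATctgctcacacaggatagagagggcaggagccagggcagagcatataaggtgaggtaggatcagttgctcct
Hbb-bt, chr7:103813924-103814173, minus strand: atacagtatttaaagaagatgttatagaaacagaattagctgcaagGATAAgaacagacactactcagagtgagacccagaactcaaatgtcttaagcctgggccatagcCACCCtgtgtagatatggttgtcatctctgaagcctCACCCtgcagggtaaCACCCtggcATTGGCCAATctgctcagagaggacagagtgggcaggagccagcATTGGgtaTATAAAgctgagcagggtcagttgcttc
All 3 windows held a CACCC box, a CCAAT box and a GATAA motif, and Hbb-bt alone of them held TATAAA, 28 bases before its start. The CCAAT on the written strand lay 88 bases before the start in Hba-a1, 76 in Hbb-bs and 75 in Hbb-bt, where it adjoins a copy on the other strand. Among 32536 windows of the same length, 52.1% held CACCC, 33.8% CCAAT, 22.5% GATAA and 12.3% TATAAA. The Hba-a2 window was identical to that of Hba-a1 over 247 bases, whereas Hbb-bs and Hbb-bt shared 72.0% over 243. The matches describe letters, not binding.

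Summed over the 4 genes, globin RNA was 4, 10, 4 and 2 counts in the WT libraries and 34, 462, 118 and 146 counts in the A17/+ libraries. In CPM the genotypes averaged 16.4 ± 10.8 (WT) and 533 ± 535 (A17/+; SD, n = 4). Even in A17/+ 2 globin made up only 0.110% of all counts. Alpha chains took 35.3% of the globin counts in A17/+ 1 (exact binomial 95% interval 19.7% to 53.5%), 37.4% in A17/+ 2 (33.0% to 42.0%), 50.8% in A17/+ 3 (41.5% to 60.2%) and 52.7% in A17/+ 4 (44.3% to 61.1%). The intervals of A17/+ 2 and A17/+ 4 did not overlap, so the alpha share differed between these A17/+ mice, a pair picked after the values were seen, by more than counting error. The share of Hbb-bs among beta counts was 84.4% to 90.9% over the 4 A17/+ libraries, subject to the uncertain split between the beta genes. With 2 to 10 globin counts, the WT libraries could not show a make-up.

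**Figure D2:**
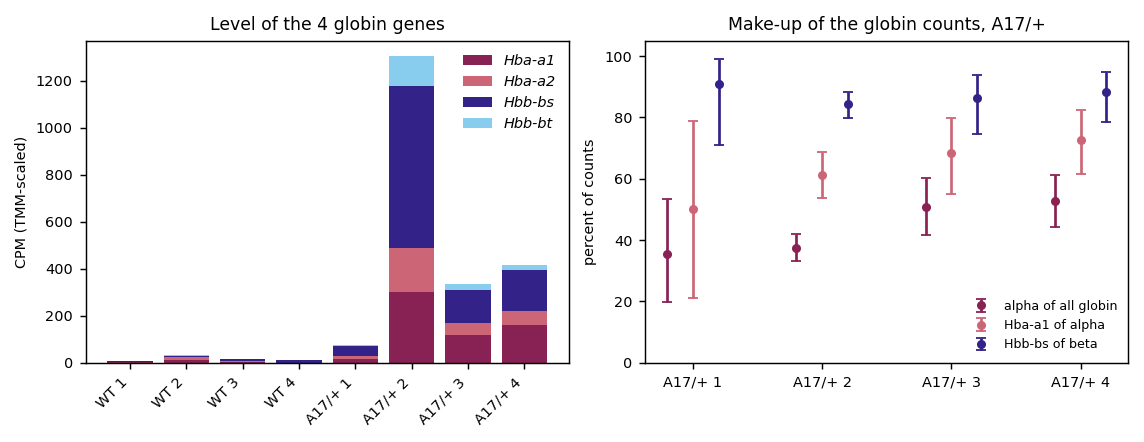
Left, stacked CPM of Hba-a1, Hba-a2, Hbb-bs and Hbb-bt in each library. Right, for the A17/+ libraries, the percent of globin counts from alpha genes, of alpha counts from Hba-a1 and of beta counts from Hbb-bs, with exact binomial 95% intervals. Globin RNA was highest in A17/+ 2, and the alpha share ran from 35.3% to 52.7%.

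Mb (ENSMUSG00000018893, chr15:77015487-77050670, minus strand), the oxygen store of muscle fibres, gave 268, 112, 69 and 58 counts in the WT libraries 1 to 4 and 411, 970, 704 and 974 in the A17/+ libraries. In CPM these were 597, 362, 234 and 314 in WT and 916, 2739.5, 1989 and 2776 in A17/+. WT 1 was the highest WT library and A17/+ 1 the lowest A17/+ library, and the groups still did not overlap. Mb rose 5.50-fold in A17/+ (log2 fold change 2.46, SE 0.40, 95% interval 1.56 to 3.36; 377 ± 156 against 2105 ± 872 CPM, SD, n = 4; edgeR adjusted p = 0.00796). With the transcript length trend removed the log2 fold change was 1.65 (adjusted p = 0.000897).

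Other muscle genes rose beside Mb. Of 12 fast fibre genes, 9 rose and none fell, beside 6.34% of all tested genes that rose and 2.61% that fell, with a median log2 fold change of 0.96 against 0.01 over all tested genes. Among them Pvalb, a calcium buffer of fast fibres, rose by 4.35 and Myoz1, a Z-disc protein of fast fibres, by 1.99 (adjusted p = 0.00278 and 0.00298, log2 scale). Ckm, muscle creatine kinase, rose by 1.09 with overlapping genotypes and Myl1, a myosin light chain, by 1.76 (adjusted p = 0.00629 and 0.00635). Of 5 tested slow and oxidative fibre genes, Cox7a1, a muscle subunit of cytochrome oxidase, rose by 5.03 and Fabp3, a fatty acid carrier, by 3.12 (edgeR adjusted p = 0.0126 and 0.00187). Tpm3, a tropomyosin on that list, fell by 0.92 with overlapping genotypes (edgeR adjusted p = 0.0359). These 5 genes are too few to set against the 6.34% of all tested genes. Myh7, Tnnc1 and Myl3 of the list were not among the genes counted. Tnni1 and Myl2, named after their values were seen, had 0 to 3 counts in a library. Pvalb, Cox7a1 and Fabp3 had 0 to 12 counts in a WT library and could not have passed the filter without A17/+. Their p is a description, as for Hbb-bs, and the 9 fast fibre genes that rose include Pvalb. Of 9 genes common to all fibres, Acta1, Tcap and Des rose and none fell (median 0.23), again beside 6.34% of all tested genes, and their summed CPM overlapped between genotypes, at 68946 to 89729 in WT and 78566 to 100191 in A17/+.

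The genes most like each of Mb, Hbb-bs and Fth1 over the 8 libraries, by Pearson's r of log2 CPM, are given as a description. For Mb they were Eno3 (muscle enolase, r = 0.995), Plac9a (0.995), Ndufa9 (complex I, 0.995), Hspb6 (a small heat shock protein, 0.992) and Cox6a2 (muscle cytochrome oxidase, 0.991). For Hbb-bs they were Cox5a (0.989), Tppp3 (0.988), Ndufb8 (0.988), Ndufv3 (0.988) and Atp5k (0.984), of which all but Tppp3 encode parts of the respiratory chain or ATP synthase. For Fth1 they were Capns1 (the small calpain subunit, 0.997), Uqcrh (complex III, 0.995), Dcn (decorin, 0.992), Ndufv1 (0.989) and Cand2 (0.988). The genotypes differed past the threshold in these genes except Cand2 (log2 fold change 1.03, edgeR adjusted p = 0.0659). All genes of a library also share its depth and length profile. For these reasons r over 8 libraries includes the difference between genotypes.

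Alas2 (ENSMUSG00000025270, chrX:150547375-150570638, plus strand), the first enzyme of haem synthesis in red-cell precursors, was seen 5, 0, 2 and 2 times in WT 1 to 4 and 11, 10, 4 and 2 times in A17/+ 1 to 4. The genotypes overlapped (7.19 ± 5.19 against 17.4 ± 10.7 CPM, SD, n = 4; exact permutation p = 0.229). Its highest A17/+ libraries were 1 and 2, whereas the globins were lowest in A17/+ 1. Of 18 genes of haem synthesis and export, 4 were tested and none passed (median log2 fold change 0.00). In the fit with no filter Tmem14c had a log2 fold change of 1.97 (edgeR adjusted p = 0.0187). It was counted 2, 4, 1 and 1 times in WT 1 to 4 and 3, 12, 13 and 13 times in A17/+ 1 to 4. Abcb10 went the other way there, at −1.54 (edgeR adjusted p = 0.0582). Both genes are named after their values were seen, as a description. Alas1, the enzyme that starts haem synthesis in other tissues, was at 829 ± 170 and 749 ± 29.5 CPM (log2 fold change −0.14, adjusted p = 0.645), and Fech, which inserts iron into haem, was at 116 ± 35.3 and 154 ± 21.7 CPM (0.37, adjusted p = 0.357). Of 9 genes of haem breakdown and scavenging 3 were tested and none passed. The list summed to 905 to 1154 CPM in WT and 713 to 881 CPM in A17/+, without overlap. Lrp1, the receptor for haemopexin-bound haem, had a log2 fold change of −0.38 (adjusted p = 0.126) and Cd163, the haptoglobin-haemoglobin receptor of macrophages, 0.34 (adjusted p = 0.615). Cygb, cytoglobin, was the tested gene among 13 other globins and had a log2 fold change of −0.73 (adjusted p = 0.151).

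Fth1 (ENSMUSG00000024661, chr19:9980598-9985098, plus strand), the ferritin chain that oxidises iron, reached 80, 55, 25 and 29 counts in the WT libraries and 112, 239, 208 and 233 in the A17/+ libraries, in order of their numbers. A17/+ 1, at 250 CPM, lay between the highest WT library (178 CPM) and the other A17/+ libraries (588 to 675 CPM). Fth1 rose 3.61-fold (log2 fold change 1.85, SE 0.32, 95% interval 1.17 to 2.53; 149 ± 44.3 against 544 ± 200.1 CPM, SD, n = 4; edgeR adjusted p = 0.00486). With the length trend removed the log2 value was 1.33 (adjusted p = 0.00267).

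Ftl1 (ENSMUSG00000050708, chr7:45457944-45459884, minus strand), the ferritin chain that helps the iron core form, overlapped between the genotypes. Its counts were 12, 7, 8 and 5 for WT 1 to 4 and 13, 7, 6 and 4 for A17/+ 1 to 4, or 22.6 to 27.1 and 11.4 to 29.0 CPM. The means were 25.9 ± 2.18 and 19.3 ± 7.35 CPM (SD, n = 4; exact permutation p = 0.143), and the pooled ratio of 0.770 had a counting interval of 0.452 to 1.31, which excludes the 3.61-fold of Fth1 at the level of counting error. Ftl1 has 11 annotated near-copies of its 3′ end, at 95% identity or more over 100 nt or more. How reads that match several places were counted is not given in the sources used here, so the level of Ftl1 is uncertain. Fth1 has no such copy in the annotation.

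Tfrc (ENSMUSG00000022797, chr16:32608920-32632794, plus strand), with its 4 elements in the 3′ UTR, was counted 68, 54, 36 and 30 times in WT 1 to 4 and 82, 38, 60 and 39 times in A17/+ 1 to 4. Mean levels of 153 ± 22.6 CPM (WT) and 143 ± 39.0 CPM (A17/+) lay within the spread (SD, n = 4), and the highest and lowest libraries of the series were both A17/+. The log2 fold change of −0.09 (SE 0.23, 95% interval −0.58 to 0.40, edgeR adjusted p = 0.860) changed sign, to 0.03, without A17/+ 2 and with counts thinned to equal depth. The interval excludes a change as large as that of Mb or Fth1 in either direction.

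Of 29 other genes of iron uptake, export and sensing, 9 were tested, and Cisd1, an iron-sulphur protein of the outer mitochondrial membrane, rose (23.7 ± 6.74 to 104 ± 48.7 CPM, log2 fold change 2.15, adjusted p = 0.00434). Cisd1 had 10, 5, 7 and 6 counts in WT 1 to 4 and could not have passed the filter without A17/+, so its p is a description. None of the 9 fell, and the median was 0.11. Of 23 genes of iron-sulphur cluster assembly 4 were tested, and Bola3, which helps to deliver clusters to mitochondrial enzymes, rose (log2 fold change 0.92, adjusted p = 0.0153). These shares, 1 in 9 and 1 in 4, rest on few genes, beside 6.34% of all tested genes. With no filter, Glrx5 and Isca2 of the cluster assembly list had log2 fold changes of 1.98 and 3.07 (edgeR adjusted p = 0.0112 and 0.0132). Glrx5 was counted 6, 1, 1 and 1 times in WT 1 to 4 and 3, 15, 11 and 16 times in A17/+ 1 to 4. Isca2 was counted 1, 0, 1 and 0 times in WT 1 to 4 and 4, 4, 10 and 7 times in A17/+ 1 to 4. Others of that list had negative values, such as Hscb at −0.46 (edgeR adjusted p = 0.717). These genes are named after their values were seen, as a description.

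**Figure D3:**
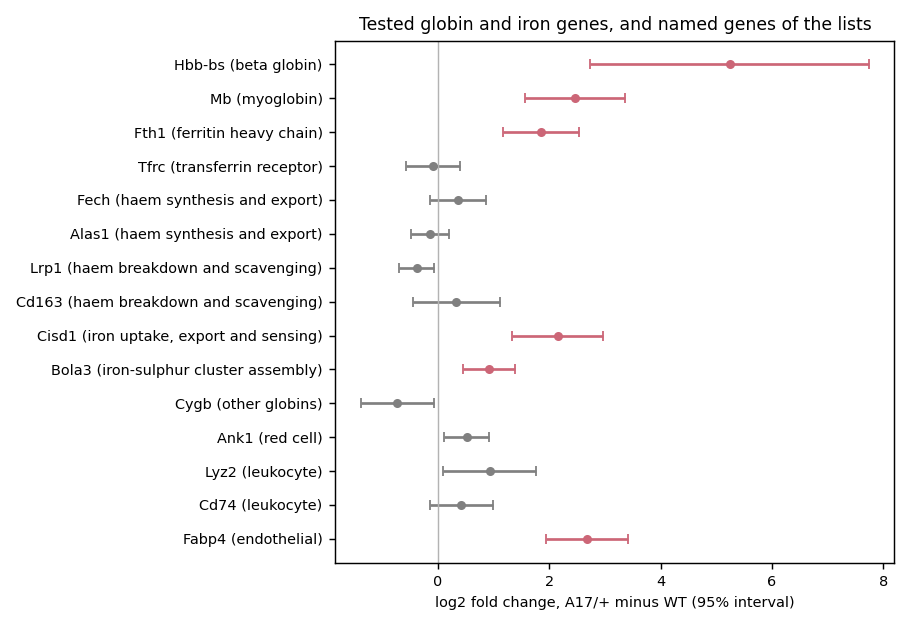
Log2 fold change (A17/+ minus WT, points) with 95% intervals (bars) from edgeR for the 4 tested globin and iron genes and for the genes named from the haem, iron and cell type lists, with red where the adjusted p was below 0.05. Hbb-bs, Mb, Fth1, Cisd1, Bola3 and Fabp4 lie past the threshold, and the interval of Tfrc spans 0. Hbb-bs, Cisd1 and Fabp4 could not have passed the filter without A17/+.

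Within a library, muscle Mb and the ferritins were set against red-cell globin as ratios of counts, which do not depend on scaling between libraries. There were 134, 56, 34.5 and 29 Mb counts per Hbb-bs count for WT 1 to 4, and 20.6, 3.98, 14.1 and 15.97 for A17/+ 1 to 4. All A17/+ libraries lay below all WT libraries. The log2 ratio (with 0.5 added to each count) averaged 5.40 ± 0.99 (WT) and 3.53 ± 1.05 (A17/+; SD, n = 4), a difference of −1.87. The exact permutation p was 0.0286, and 0.0286 after adjustment over the 6 ratios. The WT ratios rest on 2 Hbb-bs counts in each library and follow the Mb count there, so the p is that of a denominator already described as higher in A17/+ and is no separate support. With 2 added to each count the difference was −1.26 (exact permutation p = 0.143), and with depth made equal it was −1.77 (p = 0.0857, exact permutation test). Against the 4 globins summed it was −1.97 and the genotypes overlapped, with WT 2 at 3.42 below A17/+ 1 at 3.58.

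Ferritin to globin ratios were lower in A17/+ as well. Fth1 per Hbb-bs count fell from 12.5 to 40.0 in WT to 0.980 to 5.6 in A17/+ (log2 difference −2.50), and Ftl1 per Hbb-bs count from 2.5 to 6 in WT to 0.0287 to 0.65 in A17/+ (log2 difference −4.79). Mb against Fth1 was the ratio that differed least of the 6: there were 3.35, 2.04, 2.76 and 2.00 Mb counts per Fth1 count in the WT libraries and 3.67, 4.06, 3.38 and 4.18 in the A17/+ libraries, a log2 difference of 0.63. WT 1 and A17/+ 3 were almost equal in this ratio. The 2 ferritin chains parted, with Ftl1 per Fth1 count at 0.127 to 0.320 in WT and 0.0172 to 0.116 in A17/+ (log2 difference −2.29), and Mb per Ftl1 count rose by 2.92 on the log2 scale. For each of these 5 ratios the genotypes did not overlap, and the exact permutation p was 0.0286, also after adjustment over the 6 ratios. The ratios of Fth1 and Ftl1 to Hbb-bs share the 2 WT counts of their denominator, and their p is a description as well. The ratios of Ftl1 to Fth1 and of Mb to Ftl1 rest on 4 to 13 Ftl1 counts in a library, at an uncertain level. They follow the higher Fth1 and Mb already described, so their p is no separate support.

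**Figure D4:**
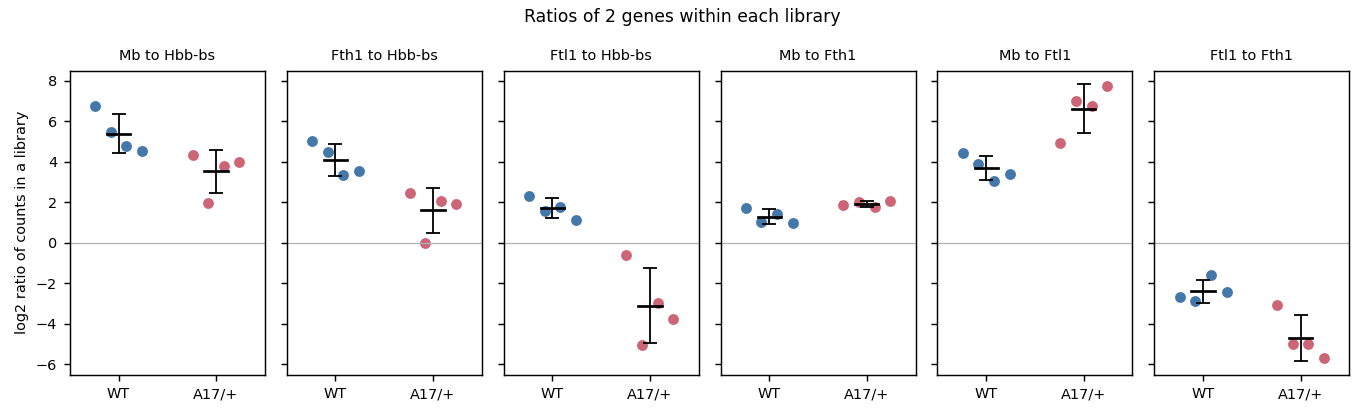
Log2 ratio of the counts of a pair of genes within each library, with 0.5 added to each count, for 4 WT and 4 A17/+ libraries (points) and the mean ± SD (black bars). Ratios to Hbb-bs and Ftl1 to Fth1 lie lower in A17/+, and Mb to Fth1 and Mb to Ftl1 lie higher, with no overlap between genotypes.

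Red-cell genes other than globins were few above the filter. Of 28 red-cell genes other than globins and Alas2, 22 were counted, 6 were tested and none passed (median log2 fold change 0.03). Klf1, Gata1, Epb42, Ermap, Hemgn, Tal1 and Tspan33, which include transcription factors and membrane proteins of the lineage and are named, like Sptb, after their values were seen, had at most 2 counts in every library. The list summed to 1041 to 1302 CPM in WT and 1337 to 1494 CPM in A17/+, without overlap, and the members with the most counts were Sptb (79 to 178 in a library) and Ank1 (49 to 198), which muscle also expresses. Such a gap was not particular to this list. Sums of the iron uptake, cluster assembly, endothelial, slow fibre and fast fibre lists also lay higher in A17/+ without overlap. The haem breakdown sum lay lower, and the sums of the remaining lists overlapped. Ank1, an ankyrin, was at 263 ± 53.3 and 378 ± 63.0 CPM (SD, n = 4; log2 fold change 0.52, adjusted p = 0.0962). Prdx2, an abundant antioxidant enzyme of red cells that other cells also make, was below the filter and is named after its values were seen. It was counted 9, 7, 5 and 2 times in WT 1 to 4 and 8, 49, 29 and 36 times in A17/+ 1 to 4. A17/+ 1 was the lowest and A17/+ 2 the highest A17/+ library, as for the globins. Genes outside the red-cell list, such as Cox7a1, Fabp3 and Krt5, had the same lowest and highest A17/+ library, whereas others, such as Myl1, did not. These genes are named here after their values were seen, and the order is not particular to red-cell genes. In the fit with no filter Prdx2 had a log2 fold change of 2.08 (edgeR adjusted p = 1.36e-06). In that fit Hbb-bt, with 1 WT count, had an edgeR adjusted p of 9.86e-08 and Hbb-bs 0.0980. The p-values of that fit are therefore given here and below as a description. The part of blood left in the sections in the globin values was not tested.

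**Figure D5:**
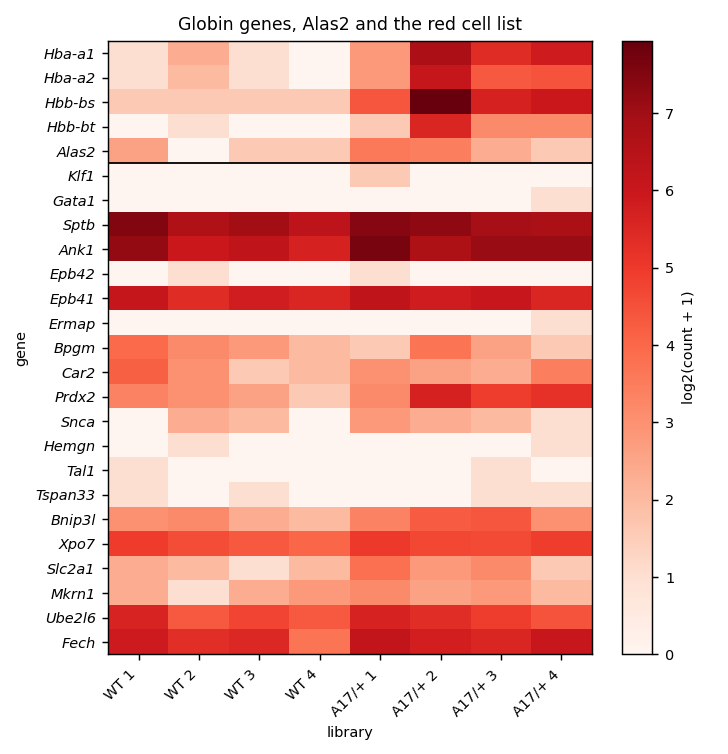
Counts of the 4 globins and Alas2 (above the line) and of counted genes of the red-cell list (below it) in each library, as log2(count + 1) on the colour scale. Globin colour deepens in A17/+ 2 to 4, whereas Klf1, Gata1, Epb42, Ermap and Hemgn stay at 0 to 2 counts in all 8 libraries.

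Markers of other cells of the blood and vessels were read in the same way. Of 13 leukocyte genes 2 were tested and none passed: Lyz2, the lysozyme of macrophages, had a log2 fold change of 0.93 (adjusted p = 0.153) and Cd74, the invariant chain, 0.42 (adjusted p = 0.346). Lyz2 overlapped through WT 1, at 294 CPM, whereas WT 2 to 4 lay at 64.3 to 97.0 CPM and A17/+ at 249 to 299 CPM, and with no filter it passed (log2 fold change 0.86, edgeR adjusted p = 0.00826). The list ran from 186 to 428 CPM in WT and 375 to 528 CPM in A17/+. The 5 counted platelet genes all lay below the filter (20.1 to 37.9 against 11.1 to 50.8 CPM), among them Pf4, which is named after its values were seen. Pf4, a platelet chemokine, had 0, 1, 2 and 1 counts over WT 1 to 4 and 1, 9, 9 and 6 over A17/+ 1 to 4. Of 16 endothelial genes 11 were tested and Fabp4, a lipid carrier of capillaries and fat cells, rose by 2.68 on the log2 scale (adjusted p = 0.00187), 1 gene in 11 beside 6.34% of all tested genes. Fabp4 had 6, 3, 4 and 4 counts in WT 1 to 4 and could not have passed the filter without A17/+, so its p is a description. The endothelial sum lay at 808 to 871 CPM in WT and 947 to 1152 CPM in A17/+, without overlap. Of 12 tested tongue epithelium genes, Dsp, Krt76 and Dsg3, genes of cell junctions and keratin filaments, fell by 0.85, 0.72 and 0.69 on the log2 scale (adjusted p = 0.00553, 0.0132 and 0.0423) and none rose, beside 2.61% of all tested genes that fell. Other keratins of the list had positive values, such as Krt13 at 0.68 and Krt5 at 0.81 (adjusted p = 0.0501 and 0.0942). With no filter Krt13, Krt5 and Sprr1a passed as higher (log2 fold change 0.61, 0.73 and 1.78, edgeR adjusted p = 0.00124, 0.00693 and 0.00569); these 3 are named after their values were seen. The list summed to 14974 to 17169 CPM in WT and 10790 to 20934 CPM in A17/+. The part of vessels, of blood or of a changed mix of tissue in the globin and Mb values was not tested.

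Transcript length moved with the calls over the whole table. Length here and above is that of a gene's longest transcript in the basic set of GENCODE M21, which need not be the form present. It was 554 to 703 nt for the globins, 968 for Ftl1, 1104 for Mb, 1494 for Fth1, 2037 for Alas2 and 4890 for Tfrc. Of 173 tested genes under 1000 nt, 40.5% rose in A17/+, against 26.2% of 279 genes of 1000 to 1500 nt, 9.5% of 1200 genes of 1500 to 3000 nt and 1.88% of 3409 longer genes. The globins, Mb and Fth1 thus belong to the length classes that rose most often and Tfrc to the class that rose least often, whereas Ftl1 is short and overlapped between the genotypes. With the length trend removed, Mb and Fth1 passed at the smaller values given above. The Hbb-bs call in that fit is a description, since the same filter let it in through A17/+ alone. The part of transcript length in these values was not tested.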

How the data were processed

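RNA of 8 bulk tongue libraries was measured by mcSCRB-seq. The submitters' processing notes name cutadapt 2.10, STAR 2.7.5a, UMI-tools 1.1.1, HTSeq and the build mm10; settings, strand and annotation release are not given in the sources used here. The table deposited by the authors holds raw counts per Ensembl gene. The files deposited by the authors for each library hold log2 values, used in 1 alternative.

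The 9 genes and 14 gene lists were chosen with earlier results of these data known. Symbols came from GENCODE M21 by identifier (19677 of 19857 genes). Genes were filtered with filterByExpr (minimum count 10, minimum total 15), scaled by TMM and tested by genotype with edgeR 4.0.16 (quasi-likelihood, robust) in R 4.3.3, with Benjamini-Hochberg adjustment over 5066 genes and a threshold of 0.05. Genes below the filter and within-library ratios were compared by two-sided exact permutation tests over 70 assignments (smallest p 0.0286). Pooled ratios have exact counting intervals, and a count of 0 allows up to 3 counts. Library totals of 205696 to 485326 counts mean that 10 CPM is a few molecules.

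Named genes were the 9 genes, per list up to 4 genes past the threshold taken in order of p, or up to 2 as values where none passed, and the 5 most alike Mb, Hbb-bs and Fth1. The text marks any gene named outside this rule as picked with its values in view. Near-copies were searched with blastn 2.17.0. Promoter windows are RefSeq's. On simulated data for this comparison (4816 genes), 40% of genes changed 2-fold and 97% of genes changed 4-fold were recovered, and 4.20% of the calls were false. Alternatives were other scalings, DESeq2 1.42.0, limma-voom and limma-trend (limma 3.58.1), other filters, a replicate block, removal of mitochondrial transcripts, summed globin copies, thinning, length trend removal, other pseudocounts, and leaving out libraries; leaving out both libraries numbered 1 was added after the data were seen. Some genes of the red-cell list are not reported here by name.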

Additional observations from a re-analysis of the deposited data

Results flagged for a closer look

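Of 32 groups of 4 libraries examined, 3 held a library far from the other 3, where chance gives about 1 in 20. Hbb-bt was at 3.23 CPM in WT 2, which is 1 count beside 0 in the other WT libraries. Hbb-bt was at 127 CPM in A17/+ 2, against 4.46 to 22.8 CPM in the other A17/+ libraries. Ftl1 was at 22.6 CPM in WT 2, against 26.7 to 27.1 CPM in the other WT libraries, a difference from 7 counts.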

How the results depend on the processing

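Mb (log2 fold change 1.65 to 3.04) and Fth1 (1.33 to 2.21) kept their direction and passed the threshold in all 22 alternatives. Hbb-bs kept its direction in the 20 alternatives that tested it alone (3.70 to 5.54) and missed the threshold in 7. Tfrc turned from −0.09 to 0.0292 with thinned counts and ran from −0.28 to 0.0276 with single libraries left out, turning without A17/+ 2. The genes called numbered 453, against 233 with limma-voom, 853 without a filter, 293 with thinned counts, 808 with limma-trend on the deposited log2 values, 1025 without both libraries numbered 1 (chosen after seeing the data) and 210 to 890 with single libraries left out; the lowest was without WT 3 and the highest without WT 1. Of the 9 genes 3 passed, against 5 with a mean count of 10 or more (Hba-a1 and Hba-a2 added), 6 with limma-trend, 5 without both libraries numbered 1, and 2 to 5 with single libraries left out. Over all genes, 514 of 4840, 808 of 10709 and 1025 of 4907 were called in the first 3 of these settings. Globin calls in these counts are a description, as for Hbb-bs. The globin genes passed the filters through A17/+ alone or, with limma-trend, had 0 to 4 counts in a WT library. The Mb to Hbb-bs difference of −1.87 was −1.26 with a pseudocount of 2 (p = 0.143, exact permutation), −1.77 with thinned counts (p = 0.0857), −1.69 without both libraries numbered 1 (p = 0.1, the smallest for 3 against 3), and −2.15 to −1.36 with single libraries left out, where 4 against 3 cannot go below 0.0571. The cause of these shifts was not tested.

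With library totals as the only scaling, 279 genes rose and 289 fell, the median of all genes moved to −0.11, and with the length trend removed 266 rose and 249 fell. Libraries with equal numbers did not deviate together (correlations 0.00, 0.07, −0.10 and −0.16). With the replicate number as a block, 410 genes and the same 3 of the 9 were called, and the Mb to Hbb-bs difference of −1.87 gave p = 0.125 in an exact sign-flip test, the smallest that 4 pairs allow. Depth limits the globins in WT, Alas2 and Ftl1, which rest on 0 to 13 counts in a library outside the A17/+ globins.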
